A study of Mus musculus with 4 samples.

Results

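Nonclassical monocytes made up 1199 of the 28290 CD45-positive cells sequenced from subcutaneous MC38 tumors, and they were picked out cell by cell from their own counts of unique molecular identifiers (UMIs), 1 UMI standing for 1 captured probe molecule. A cell counted as a member when it had at least 500 detected genes, at most 10% of its UMIs on mitochondrial genes, at least 2 UMIs of Csf1r and at least 3 UMIs of Ace, Treml4 and Adgre4 together. Cells with 0.2% or more of their UMIs on C1qa, C1qb and C1qc, with any Flt3 UMI, with more than 2 UMIs of Cd3d, Cd3e and Cd3g or with more than 1 UMI of Ncr1 and Klrb1c were left out, which removed macrophages, dendritic cells, T cells and NK cells. These genes chose the cells, so their levels describe the members and test nothing.

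The mice were B-hCTLA-4 animals, which carry a humanized CTLA-4, on a C57BL/6 background, and their tumors had grown under the skin from MC38 cells, a mouse colon carcinoma line. When tumors measured about 100 mm3 the mice were given 3 intraperitoneal treatments: human IgG1 as isotype control at 10 mg/kg, ipilimumab (a human IgG1 against human CTLA-4) at 10 mg/kg, AT130-2 (a mouse IgG1 with the N297A change, against mouse FcγRII) at 20 mg/kg, or both antibodies. Tumors of 11 mice per group were pooled on day 8, the viable cells were taken from a density gradient made for lymphocytes and sorted for CD45, and each pool gave 1 library, so treatment and library cannot be told apart. The labels contradict themselves on which of the antibodies the 2 single-antibody libraries received. The library titled after CTLA-4 is here called single antibody A and the library titled after FcγRII single antibody B, although their treatment entries read the reverse. The article gives other doses, another day of harvest, a smaller tumor at the start and fewer tumors per group.

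Nonclassical monocytes, which in the mouse carry little Ly6C, are the patrolling monocytes: they crawl along the inside of vessel walls and clear debris and damaged endothelial cells. They arise largely from classical Ly6C-high monocytes, and they need the nuclear receptor Nr4a1 to form and survive. They are rich in the activating Fcγ receptor FcγRIV, encoded by Fcgr4, which binds IgG on coated cells.

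There were 503 members in isotype control, 322 in single antibody A, 162 in single antibody B and 212 in the combination. Their UMIs summed to 4427179, 2956159, 1692547 and 2672341, and the median member held 7904, 8375.5, 9650 and 9163.5 UMIs. The median member had 3154, 3228, 3410 and 3396.5 detected genes. In total the 4 libraries held 178178393, 129151823, 142472286 and 196362818 UMIs. A few very large cells weighed on the sums: members above 30000 UMIs numbered 6, 2, 3 and 10, and they held 4.69%, 2.81%, 5.92% and 21.4% of the members' UMIs. The deepest, in the combination, had 151976 UMIs, against 41737, 52054 and 34110 in the other libraries. The libraries were loaded together, and of 23366 droplet barcodes 3998 occurred in 2 libraries and 463 in 3. In all, 369 members shared a droplet barcode with a cell of another library, and probe barcodes set such cells apart.

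The limits of the rule cut through a continuum. Just inside it lay 117 members with 3 UMIs of Ace, Treml4 and Adgre4, 90 with 4 and 63 with 5, and just outside it lay 198 cells with 2 that met the rest of the rule. A further 1021 cells met everything but the C1q limit. By contrast, the other limits removed few cells, 49 for Flt3, 29 for the Cd3 genes and 19 for Ncr1 and Klrb1c.

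Nonclassical monocytes held a smaller share of the cells in single antibody B and in the combination than in isotype control. They were 6.17% of the filtered cells in isotype control (95% interval 5.66% to 6.72%), 5.06% in single antibody A (4.53% to 5.63%), 2.66% in single antibody B, with an interval of 2.27% to 3.10%, and 2.79% in the combination, with an interval of 2.43% to 3.19%. Relative to isotype control this was a ratio of 0.452 for the combination (0.386 to 0.529), 0.431 for single antibody B (0.363 to 0.513) and 0.820 for single antibody A (0.715 to 0.939). The combination and single antibody B did not differ beyond counting error, with a ratio of 1.05 (0.856 to 1.28). These are exact binomial intervals for shares and log intervals for ratios of shares. They cover counting error only, and with 1 library per group no test between groups was made.

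A share of all cells also moves when another cell type grows or shrinks, so the members were also counted against the Ccr2 monocytes of the same library, cells with at least 1 Ccr2 UMI, at most 1 UMI of Ace, Treml4 and Adgre4, and the remaining limits of the rule. There were 802, 665, 473 and 880 of these in isotype control, A, B and the combination. Members were 38.5% of both kinds of monocyte together in isotype control, 32.6% in A, 25.5% in B and 19.4% in the combination. On this scale the combination stood lowest, at a ratio of 0.504 to isotype control (0.438 to 0.579) and of 0.761 to single antibody B (0.636 to 0.911), which drawing the cells down, as described next, left at 0.829 with an interval that includes 1 (0.657 to 1.05). A cell with more UMIs passes a minimum of 3 UMIs more easily, so the cells were also drawn down at random to 4530 UMIs each, with shallower cells left out. The shares of filtered cells were then 5.30%, 4.32%, 1.80% and 2.06%, and those of the monocytes 33.2%, 27.4%, 18.2% and 15.1%. The plot of shares shows both denominators with and without the drawing down.

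**Figure D1:**
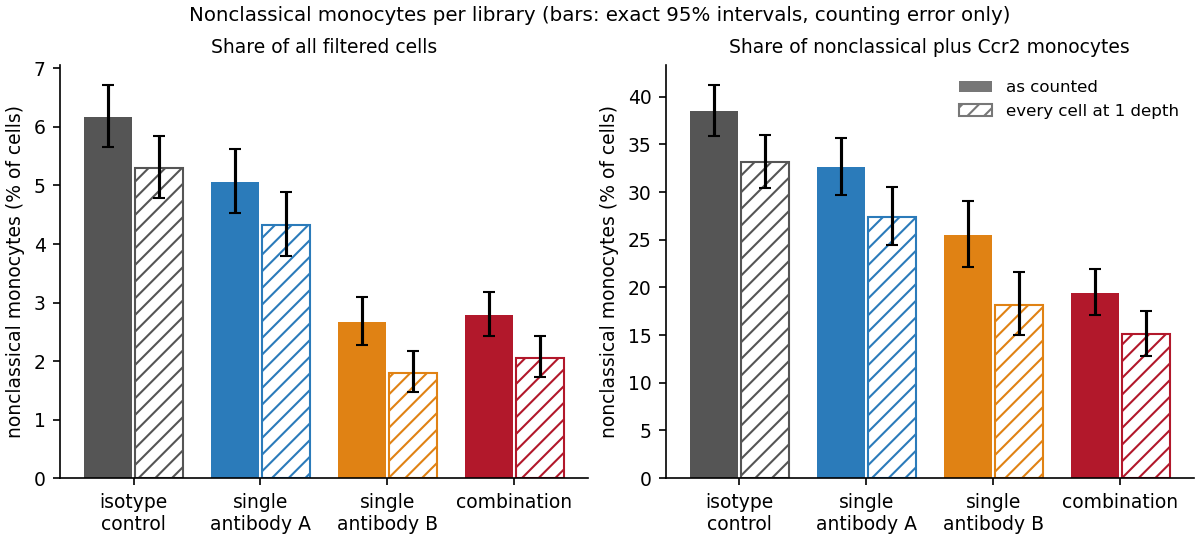
Share of nonclassical monocytes in each library, in percent of the filtered cells (left) and of nonclassical plus Ccr2 monocytes (right), as counted (filled bars) and with every cell drawn down to 4530 UMIs (hatched bars), with exact 95% intervals for counting error. Isotype control is highest in both panels, from 6.17% to 2.79% on the left and from 38.5% to 19.4% on the right for isotype control and the combination.

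The genes of the rule themselves stood as follows, as UMIs summed over the members per 1000000 of their UMIs (CPM). Ace, the angiotensin-converting enzyme (GRCm38 chromosome 11, 105967945 to 105989964), was at 2128 CPM in isotype control, 2165 in A, 1284 in B and 1111 in the combination. Adgre4, an adhesion G protein-coupled receptor (chromosome 17, 55749984 to 55853662), was at 715, 748, 513 and 422 CPM in the same order. Treml4, a receptor of the TREM family (chromosome 17, 48264295 to 48275360), was at 384, 491, 273 and 298 CPM. All 3 were lower in single antibody B and in the combination than in isotype control. In Ccr2 monocytes, Ace stood between 1.38 and 3.72 CPM, and in macrophages defined by C1q of at least 1% of UMIs between 6.57 and 18.4 CPM. The receptor of CSF-1, Csf1r, on which monocytes depend, was at 1592, 1720.1, 1484 and 1325 CPM in the members.

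Genes outside the rule also set the pooled members apart from other monocytes. Nr4a1 (chromosome 15, 101254269 to 101274795), the fourth of the marker genes and not used by the rule, was at 1440.4 CPM in isotype control, 1498 in A, 1012 in B and 843 in the combination. In Ccr2 monocytes it was at 177, 115, 164 and 105 CPM. The members stood at least 6.15-fold higher in each library. Of 23 genes of nonclassical identity that could be compared, 18 were higher in the members than in Ccr2 monocytes in all 4 libraries, where this held for 37% of all 4405 genes compared. At least 2-fold higher in all 4 were 14 of the 23, against 119 or 2.7% of all genes, and 0 were 2-fold lower, against 66 or 1.5%. Set against all other cells within the rule that had 0 UMIs of Ace, Treml4 and Adgre4, 147 genes or 3.26% were 2-fold higher and 88 or 1.95% lower. Cx3cr1, Ear2 and Ly6c2, which also set the monocyte kinds apart, were not analysed here. The list was drawn up with earlier results of these data known, and both classes were cut from these same counts, so these numbers are a description. A gene was compared between libraries or classes when it reached 50 CPM, and between libraries also 30 UMIs, in at least 1 of those compared.

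Genes were ranked by the smallest of their 4 ratios to Ccr2 monocytes, among those with at least 50 CPM in 1 of the classes in every library. The first was Pglyrp1, a peptidoglycan recognition protein, at 179 CPM in isotype control, 188 in A, 119 in B and 142 in the combination, against 12.9, 6.10, 7.82 and 5.11 in Ccr2 monocytes. The smallest of the 4 ratios was 13.9. Slc12a2, a sodium, potassium and chloride cotransporter, was at 116, 139.7, 94.5 and 125 CPM against 1.86, 13.1, 5.87 and 2.42. Eno3, the muscle form of enolase, was at 182, 193, 129 and 119 CPM against 10.3, 8.61, 12.4 and 9.35. In each of these 3 genes the lowest library of the members lay above the highest library of the Ccr2 monocytes.

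Surface and signalling genes followed. Ceacam1, an adhesion molecule, was 7.25-fold to 10.7-fold higher, at 444, 429, 305 and 242 CPM in the members. Spn, which encodes CD43, the classic surface marker of nonclassical monocytes, was at 562, 663, 405 and 433 CPM against 71.7, 62.5, 68.3 and 51.1. The other genes of the leading 15 had smallest ratios between 4.01 and 8.46: Nxpe4, Hpgd, which breaks down prostaglandins, Grk3, a kinase that turns off G protein-coupled receptors, Pot1b, Ccdc88c, Fam49a, the Notch target Hes1, Ldlrad3 and Cyfip2, a part of the actin-regulating WAVE complex. S1pr5, a sphingosine-1-phosphate receptor known for the exit of patrolling monocytes from bone marrow, was at 73.6, 80.8, 35.4 and 58.0 CPM in the members and at or under 0.991 CPM in every library of the Ccr2 monocytes, and its level in B kept it out of the ranking.

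The genes that stood lowest against Ccr2 monocytes were of several kinds. Ccl17, a chemokine for CCR4, was at 0.904, 0.338, 0 and 1.497 CPM in the members against 54.3, 115, 92.7 and 113 in Ccr2 monocytes. Mgl2, a lectin of dendritic cells and macrophages, was at 8.58, 27.7, 1.18 and 3.74 CPM against 64.7, 195, 99.3 and 57.5. Others of the lowest 10 were Col3a1, Klrb1b, Abcc3, Carmil1, Fcrlb, Rai14 and Nt5e.

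Of 16 genes of classical identity, 5 were higher in the members than in Ccr2 monocytes in all 4 libraries, where this held for 37% of all genes. At least 2-fold higher were 2 of the 5, Plac8 and Hp (all genes 2.7%), and 1 of the 16, Fn1, was 2-fold lower (all genes 1.5%). Ccr2 is among the 16 but was used to choose the comparison class, so its direction there was pushed by that choice. Plac8, a small protein of myeloid cells, was at 6964, 6878, 6556 and 5088 CPM in the members against 2523, 2388, 1749.9 and 2088 in Ccr2 monocytes, and Hp, haptoglobin, at 604, 527, 523 and 388 against 244, 164, 209 and 172. Fn1, fibronectin, was at 3036, 2408, 3765 and 2478 CPM in the members and at 8553, 7142, 8894 and 5909 in Ccr2 monocytes. Classical monocytes are known to turn into macrophages once in a tumor. When the Ccr2 monocytes were restricted to those with at least 5 UMIs of Chil3, a gene of young monocytes, 65 of 4283 genes were 2-fold higher in the members (1.52%) and 26 lower (0.607%). Against C1q macrophages, 344 of 4640 genes were 2-fold higher (7.41%) and 266 lower (5.73%). Apoe, the apolipoprotein of macrophages, was at 2760.0, 2291, 2154 and 1841 CPM in the members, and the plot of levels by class places it beside the other markers.

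**Figure D2:**
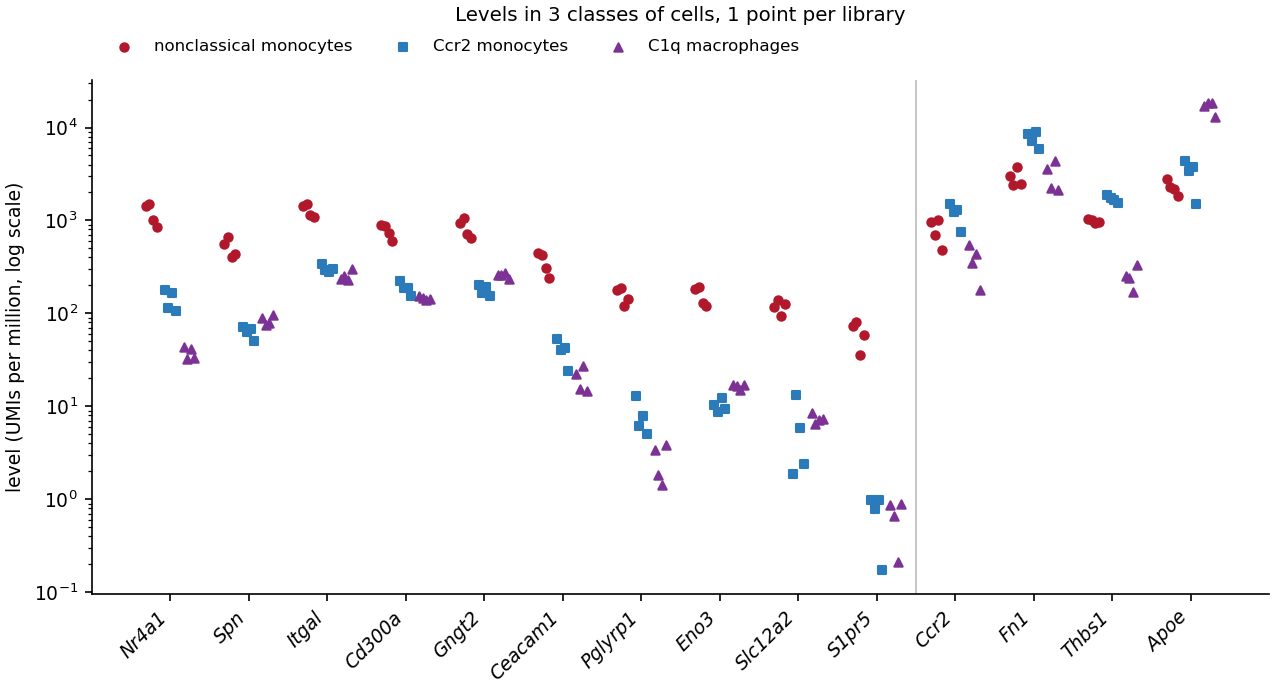
Level of 14 genes in CPM (log axis) in nonclassical monocytes (circles), Ccr2 monocytes (squares) and C1q macrophages (triangles), 1 point per library, in the order isotype control, single antibody A, single antibody B, combination. The 10 genes left of the line are highest in the nonclassical monocytes in every library, and of the 4 on the right, Ccr2 lies between 477 and 1013 CPM in the nonclassical monocytes and between 760.3 and 1495 in the Ccr2 monocytes. Ccr2 was used to choose the Ccr2 monocytes.

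The members were not uniform. Split by their UMIs of Ace, Treml4 and Adgre4, 89, 62, 53 and 66 cells held 3 to 5, 157, 82, 52 and 61 held 6 to 19, and 257, 178, 57 and 85 held 20 or more. The top range was 51.1% of the members in isotype control, 55.3% in A, 35.2% in B and 40.1% in the combination. The median member had 20, 24, 9 and 12 such UMIs. These ranges are slices of a score and not cell types.

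Genes that the rule did not use climbed along the ranges. In isotype control, Nr4a1 stood at 534 CPM in the lowest range, 1118 in the middle and 1923 in the highest, and in the combination at 322, 468 and 1512. Spn stood at 179, 327 and 819 CPM in isotype control and at 118, 265 and 797 in the combination. Eno3 was nearly confined to the highest range, at 11.2, 49.8 and 311 CPM in isotype control, 6.04, 34.0 and 347 in A, 6.39, 20.7 and 381 in B, and in the combination at 269 in the highest. Cd300e, an activating receptor of the CD300 family, went from 7.46 to 22.1 to 155 CPM in isotype control.

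Most genes of classical monocytes went the other way. Of 15 compared, 12 were lowest in the highest range in all 4 libraries and 0 were highest there, while of 23 nonclassical identity genes outside the rule 18 were highest there in all 4 and 1 was lowest. Over all 3930 genes with at least 50 CPM in every library, 14.5% were highest and 10.4% lowest there. Ccr2, the receptor that draws classical monocytes out of bone marrow, stood at 1384, 1105 and 748 CPM in isotype control and at 641, 488 and 341 in the combination. F13a1, a subunit of coagulation factor XIII, stood at 928, 596 and 257 CPM in isotype control. Fn1 stood at 6301, 3354 and 1751 CPM. Plac8, Hp and Thbs1 were the exceptions, Plac8 standing at 6154, 7694 and 6849 CPM in isotype control and Hp at 667, 707 and 528. In the lowest range both Eno3 and Ccr2 of isotype control lay close to their levels in Ccr2 monocytes, 10.3 and 1495 CPM, so for the cells with 3 to 5 UMIs of the rule genes the name rests on Nr4a1 and Spn, at 534 and 179 CPM against 177 and 71.7. The Ccr2 monocytes were chosen by Ccr2, so their level of that gene is a description only.

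**Figure D3:**
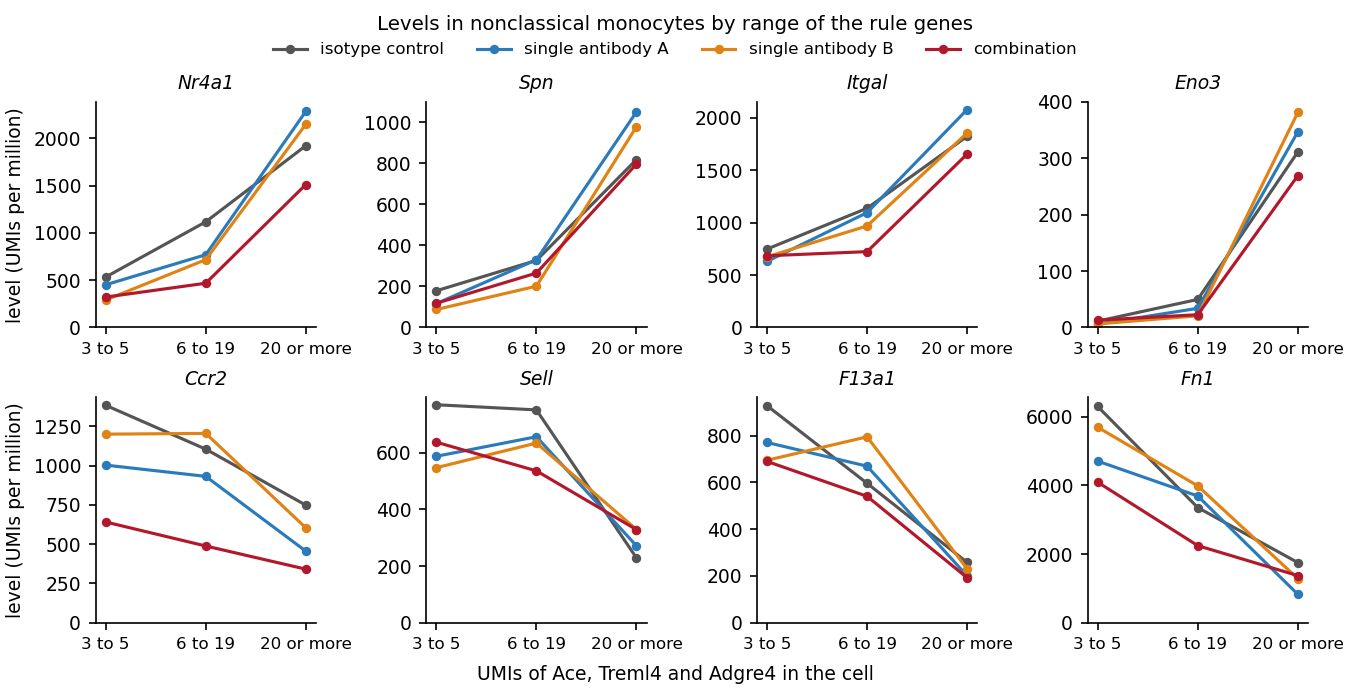
Level of 4 genes of nonclassical monocytes (upper row) and 4 of classical monocytes (lower row), in CPM, in members with 3 to 5, 6 to 19 and 20 or more UMIs of Ace, Treml4 and Adgre4, 1 line per library. In all 4 libraries the upper genes are highest and the lower genes lowest in the top range, for example Eno3 at 11.2 and 311 CPM and Ccr2 at 1384 and 748 CPM in the lowest and highest range of isotype control.

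Because the libraries differ in how their members spread over these ranges, identity genes were compared both over all members and in the top range alone. Over all members, 16 of 25 nonclassical identity genes were lower in the combination than in isotype control by more than counting error, meaning that the exact 95% interval of the ratio left out 1, and 7 were higher. Over all genes compared 28.3% were lower and 22.5% higher by that measure, and the median ratio was 0.759 for the list and 0.968 for all genes. In the top range 13 of 27 were lower and 7 higher, where 19.7% of all genes were lower and 15.8% higher, with a median of 0.974 against 0.956. In single antibody B 20 were lower and 3 higher over all members (all genes 16.9% and 12.3%, list median 0.756), but in the top range 1 of 27 was lower and 7 were higher (all genes 6.93% and 6.79%, list median 1.017). In single antibody A 2 were lower and 11 higher over all members (all genes 10.2% and 11%, list median 1.06), and in the top range 1 was lower and 18 were higher (all genes 9.8% and 10.2%, list median 1.11). Genes of the rule were left out of these counts and of those of the other lists. At 2-fold, the combination had 194 of 4728 genes higher (4.1%) and 23 lower (0.486%), single antibody A 11 of 4498 higher (0.245%) and 3 lower (0.0667%), and single antibody B 41 of 4535 higher (0.904%) and 2 lower (0.0441%). Of the identity genes 1 was 2-fold higher in the combination and 1, Hes1, lower. The higher one, Cd36, a scavenger receptor for lipids and dead cells, was at 106, 117, 229 and 225 CPM, a ratio of 2.11 that was 0.859 without the members that held UMIs of the neutrophil genes S100a8 or S100a9. Such cells were unevenly spread over the libraries, as set out further on, so values without them stand beside many of the results. Without them 5 of the 25 identity genes were higher, against 49.9% of all genes, with a median of 0.825 against 1.00.

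Among the regulators of monocyte fate, 10 of 18 were lower in the combination by more than counting error and 4 were higher, where 28.3% and 22.5% of all genes were, so the share of higher genes was close to that of all genes. Of the 18, 0 were 2-fold higher and 2, Egr1 and Hes1, were 2-fold lower, where 4.1% and 0.486% of all genes were. Without the S100a8 or S100a9 members 6 of the 18 were higher, where 49.9% of all genes were. Their median was then 0.936, against 1.00 for all genes. Nr4a1 was at a ratio of 0.585 to isotype control (0.557 to 0.614) over all members and of 0.786 in the top range. Without members above 30000 UMIs it was 0.705, with every member weighing the same 0.774, and with every member weighing the same and the ranges also mixed as in isotype control 0.90. Klf2, a factor of quiescence and of patrolling monocytes, was at 1035, 990.5, 869.7 and 763 CPM. Klf4, which monocytes need to form, was at 417, 284, 308 and 222 CPM, a ratio of 0.532 for the combination. Hes1, which the identity list also holds, was at 135, 101, 88.6 and 58.0 CPM, a ratio of 0.429 (0.358 to 0.513) that narrowed to 0.551 in the top range. Rbpj, the DNA-binding partner of Notch, stood the other way at 207, 233, 268 and 290.01 CPM, a ratio of 1.40. The Notch target and the Notch partner thus differed in opposite directions. Pou2f2, which encodes the octamer factor OCT2, was at 224, 237, 164 and 143 CPM, and Cebpb, a factor nonclassical monocytes need, at 2296, 2567, 2257 and 2429.

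Receptors for movement into and through tissue differed in both directions. Ccr2 was at 966, 697, 1013 and 477 CPM, a ratio of 0.494 for the combination (0.464 to 0.526), and in the top range at 748, 455, 604 and 341. It was lower by a like ratio in Ccr2 monocytes, at 1495, 1234, 1297 and 760.3 CPM. Ccr1, a receptor for CCL3 and CCL5, stood at 154, 154, 229.8 and 321 CPM. It was highest in the combination, as it also was in the top range, at 316 CPM. The chains of adhesion receptors differed less. Itgal, the LFA-1 chain on which crawling along vessels depends, was at 1431, 1509, 1139 and 1086 CPM. Pecam1, which also marks endothelium, was at 48.6, 91.7, 35.4 and 101 CPM, with the other endothelial markers between 0 and 11.8 CPM in every library. Of the 16 adhesion and trafficking genes, 6 were higher and 8 lower in the combination by more than counting error (all genes 22.5% and 28.3%), with 2 (Ccr1 and Pecam1) at 2-fold higher and 1 (Ccr2) lower (all genes 4.1% and 0.486%). Without the S100a8 or S100a9 members 0 were at 2-fold in either direction, with ratios of 1.62 for Ccr1, 1.81 for Pecam1 and 0.536 for Ccr2.

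The Fcγ receptors, which bind the constant part of IgG and are the target of 1 of the antibodies, were the next group. The labels call that target FcγRII, which in the mouse is encoded by Fcgr2b, the inhibitory receptor. Fcgr2b was at 571 CPM in isotype control, 549.7 in A, 772 in B and 742 in the combination. Single antibody B and the combination lay above both other libraries, with ratios of 1.35 (1.26 to 1.44) and 1.30 (1.22 to 1.38), though in the top range the levels were 535, 350.2, 443 and 614 CPM. Fcgr4 (chromosome 1, 171018920 to 171029761) was at 403, 449, 287 and 552 CPM, highest in the combination at a ratio of 1.37 (1.28 to 1.47) and lowest in single antibody B at 0.712 (0.643 to 0.787).

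In the top range Fcgr4 was at 461, 563, 441 and 800.2 CPM, a ratio of 1.73 for the combination. Fcgr3, the low-affinity activating receptor, was at 802, 781, 845 and 944 CPM, and Fcgr1, the high-affinity receptor, at 396, 366, 410.03 and 408. Fcer1g, the signalling chain that the activating receptors share, hardly differed, at 2854, 2862, 2868 and 2865 CPM. Of the 5 genes, 3 were higher in the combination by more than counting error, 0 were lower and 0 reached 2-fold, where 22.5% of all genes were higher and 28.3% lower. The median ratio of the 5 was 1.07 without the S100a8 or S100a9 members. Compared with Ccr2 monocytes, 0 of the 5 were higher in the members in all 4 libraries, where 37% of all genes were, and Fcgr4 itself was at 476, 489.6, 412 and 551 CPM there.

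Genes that carry or restrain the signal of these receptors, and related receptors, were mostly lower in the combination over all members. Lower by more than counting error were 10 of 13, and 1 was higher (all genes 28.3% and 22.5%). The list mixes activating and inhibiting genes, so these counts give no direction of signalling. The median ratio was 0.838 against 0.968 for all genes, and 0.878 against 1.00 without the S100a8 or S100a9 members. In the top range 6 of 13 were lower and 1 higher (all genes 19.7% and 15.8%), with a median of 0.879 against 0.956. Over all members Plcg2, the phospholipase behind the receptor complex, was at 439, 381, 374 and 281 CPM, the lowest ratio of the list at 0.639. Syk, the kinase that binds the phosphorylated chain, was at 718, 811, 638 and 724 CPM, and Lyn, a Src-family kinase with both activating and inhibiting roles, at 1185, 1184, 1085 and 946. The higher gene was Lilrb4a, an inhibitory receptor, at 381, 404, 479 and 527 CPM.

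The response genes of interferon gamma, the cytokine of T and NK cells that activates monocytes, were higher in the combination as a group. All 19 that were measured well enough lay above isotype control by more than counting error, 6 of them at least 2-fold, with a median ratio of 1.82, where 22.5% of all genes lay above and 4.1% reached 2-fold. In the top range it was again 19 of 19, with 11 at 2-fold, where 187 or 4.03% of all 4641 genes were 2-fold higher and 20 or 0.431% lower, and a median of 2.33. In single antibody A 8 of 17 lay above and 0 below, with a median of 1.07 (all genes 11% above and 10.2% below). In single antibody B 6 lay above and 3 below, with a median of 1.05 (all genes 12.3% and 16.9%). Without the S100a8 or S100a9 members, 18 of 18 were higher, with a median of 1.49 where all genes had 1.00 and 49.9% of them were higher. At 2-fold there were 5 of the 18, against 2.72% of all genes. The summed list was highest in the combination in Ccr2 monocytes too, at 7411, 8769, 6120 and 12515 CPM. It was so in macrophages as well, at 4980, 7207, 4163 and 11226 CPM, so the difference was not particular to the members.

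Nos2 (chromosome 11, 78920787 to 78960254), inducible nitric oxide synthase, differed most, at 24.2 CPM in isotype control, 49.1 in A, 33.7 in B and 499 in the combination, a ratio of 20.6 (16.9 to 25.4). The combination stood above all other libraries. In the top range Nos2 went from 9.75, 5.77 and 11.2 CPM to 511, and without members that held S100a8 or S100a9 the ratio was 9.73. Ccr2 monocytes held more of it in every library, at 216, 535, 291 and 1403 CPM. With each cell drawn down to 2000 UMIs, 1.12%, 2.38%, 2.85% and 15.2% of the members had a Nos2 UMI. In T cells, whose share serves as the background from free RNA and whose median depth was 4010.5, 5046.5, 4458 and 5503 UMIs, the shares were 0.852%, 0.393%, 0.432% and 5.23%. In isotype control the share of the members was hardly above that background, and in the combination it was well above.

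Cd274 (chromosome 19, 29367455 to 29388095), the checkpoint ligand PD-L1, was at 137, 197, 148 and 609 CPM, a ratio of 4.45 (4.05 to 4.89) for the combination and of 5.30 in the top range. With cells drawn down, 17.9%, 24.4%, 17.6% and 47.5% of the members had a UMI, and 19.7%, 19.3%, 18.2% and 26.3% of the T cells, which can also express the gene. Cxcl9, a chemokine that draws activated T cells through CXCR3, was at 295, 471, 597 and 989 CPM, a ratio of 3.35 that was 3.76 without the S100a8 or S100a9 members, and 13.5%, 13.5%, 15.3% and 37.0% of the members had a UMI against 7.40%, 3.62%, 2.76% and 13.7% of the T cells. Cxcl10, its close relative, was at 349.7, 349, 514 and 917 CPM, with a ratio of 2.57 without them. In all 3 genes the combination was the highest library, and single antibody B was above isotype control for both chemokines over all members. Drawn down, Cd274 was found in 21.1%, 32.9%, 20.8% and 52.7% of Ccr2 monocytes and in 17.0%, 23.5%, 13.8% and 43.0% of macrophages. Cxcl9 was found in 22.8%, 29.9%, 21.5% and 43.7% of Ccr2 monocytes and in 30.4%, 48.7%, 24.3% and 67.7% of macrophages. For Cd274 and Cxcl9 the combination was thus the highest library in those classes too.

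Socs1, an inhibitor of interferon signalling, was at 139, 133, 178 and 428 CPM, a ratio of 3.08 that was 2.84 without the S100a8 or S100a9 members. Iigp1, an interferon-inducible GTPase, was at 34.8, 27.4, 26.6 and 76.7 CPM, a ratio of 2.21 that was 1.15 without them. The guanylate-binding proteins followed, Gbp5 at 319.8, 360.3, 357 and 619.7 CPM and Gbp2 at 902, 966, 815 and 1529. The smallest difference of the list was that of Psmb8, a subunit of the immunoproteasome, at 612, 598, 554 and 669 CPM, a ratio of 1.09 (1.03 to 1.16). The plot of ratios sets these genes out in all members, in the top range and without the S100a8 or S100a9 members.

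**Figure D4:**
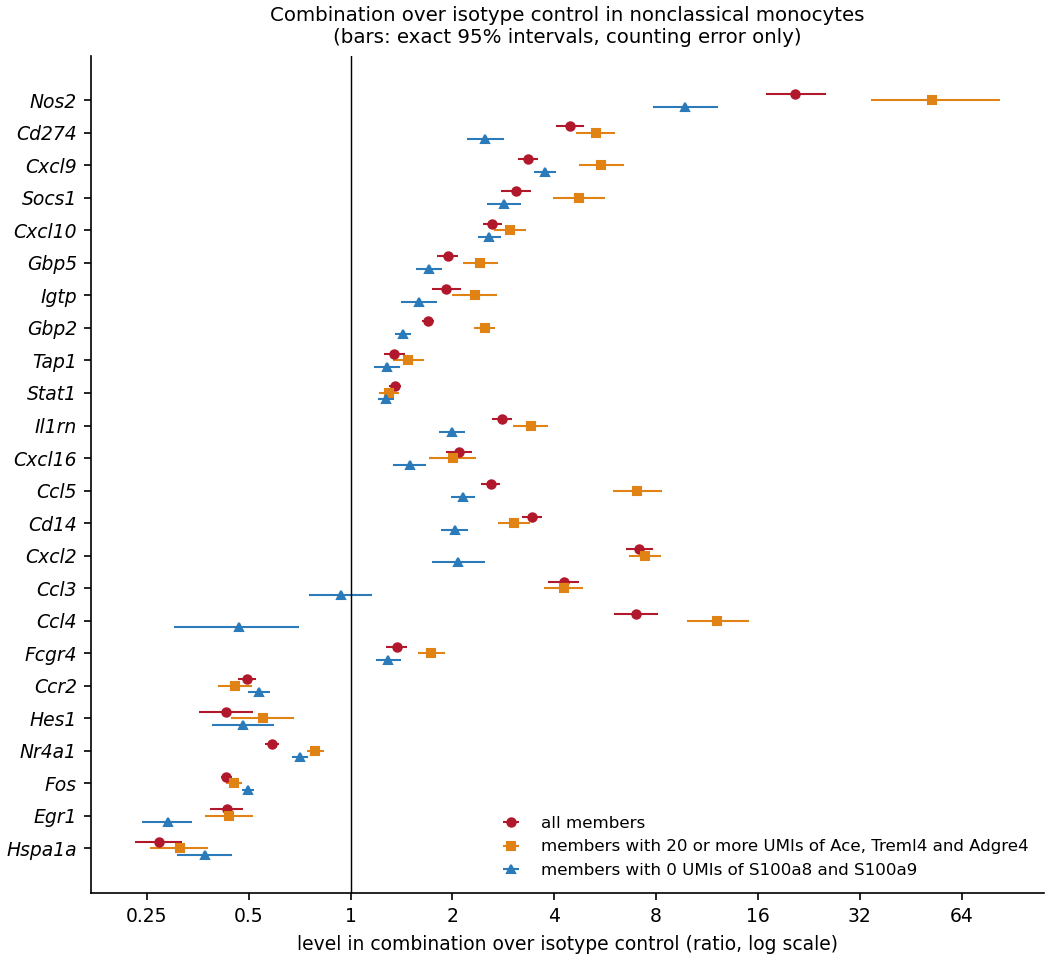
Ratio of the combination to isotype control (log axis) for 24 genes in all nonclassical monocytes (circles), in those with 20 or more UMIs of Ace, Treml4 and Adgre4 (squares) and in those without S100a8 or S100a9 UMIs (triangles), with exact 95% intervals for counting error. Genes of the interferon gamma response lie right of 1 in all 3 sets, Nos2 farthest at 20.6, 52.4 and 9.73, while Ccl3 and Ccl4 cross to 0.937 and 0.468 in the third set.

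Genes typical of type I interferon differed less. Of 13, 9 were higher in the combination by more than counting error and 1 was lower (all genes 22.5% and 28.3%), with a median ratio of 1.31, and without the S100a8 or S100a9 members 8 of 13 were higher with a median of 1.06, near the 49.9% and the median of 1.00 of all genes. Rsad2, which encodes viperin, was at 89.2, 107, 55.5 and 234 CPM, the only one at 2-fold (all genes 4.1%), and at a ratio of 1.06 without those members. Isg15, a ubiquitin-like modifier, was at 342, 352, 357 and 617 CPM. Ifitm3, which blocks the entry of viruses, was at 2410.3, 2371, 2349 and 1897 CPM, a ratio of 0.787. In the top range 10 of 13 were higher and 1 lower by more than counting error (all genes 15.8% and 19.7%). There 3 were at 2-fold (all genes 4.03%), and the median was 1.35. Without members above 30000 UMIs 12 of 13 were higher and 4 at 2-fold, with a median of 1.32. In that set 1796 of all 4576 genes were higher and 160 at 2-fold, with a median of 0.951.

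All 7 genes of MHC class I presentation were higher in the combination by more than counting error, as were 22.5% of all genes, with a median ratio of 1.43, 1.28 without the S100a8 or S100a9 members. H2-K1, a class I heavy chain, was at 814, 953, 710.2 and 1169 CPM, and Tap1, part of the peptide transporter, at 389, 409, 374 and 522. B2m, the light chain, showed a pattern of its own, at 1051 CPM in isotype control and 2244, 2118 and 3001 in the other libraries. The same steps stood in Ccr2 monocytes, at 994, 2147, 1916 and 3239.5 CPM, in macrophages, at 1050, 2304, 2023 and 3262, and in T cells, at 1292, 2264, 2612 and 2980. The step was thus not particular to the members.

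Of the MHC class II genes 3 of 7 were higher and 2 lower by more than counting error, where 22.5% and 28.3% of all genes were. The median ratio over all members, 0.965, lay at that of all genes, 0.968. In the top range 4 of 7 were higher and 1 lower (all genes 15.8% and 19.7%), with a median of 1.18 against 0.956. Over all members H2-Ab1, a class II beta chain, was at 1566, 1541, 1611 and 1911 CPM, and Cd74, the invariant chain, at 5293, 5188, 4868 and 5675. H2-DMa, which helps load peptide, was lower, at 300.2, 286, 297 and 245 CPM. All were under their levels in Ccr2 monocytes, where Cd74 was at 9777, 10827, 7614 and 10957 CPM.

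Cytokine and chemokine genes were higher in the combination in 15 of 18 cases by more than counting error and lower in 3 (all genes 22.5% and 28.3%), with 10 at least 2-fold higher (all genes 4.1%) and a median ratio of 2.34. Without the S100a8 or S100a9 members 12 of 16 were higher, 5 at 2-fold, with a median of 1.51, where 49.9% of all genes were higher and 2.72% at 2-fold. The strongest was Inhba, a subunit of activin A, at 0.904 CPM in isotype control, 11.8 in A, 11.2 in B and 186 in the combination, a ratio of 206 (79.9 to 758) that rests on 4 UMIs in isotype control. A UMI was found in 42 of 212 members of the combination and in 4 of 503 of isotype control, and without the cell with the most Inhba UMIs, 19.3% of them, the ratio was 168. It was 185 (50.3 to 1543) without the S100a8 or S100a9 members, at 0.481 CPM in isotype control and 89.0 in the combination. With cells drawn down, 0.202%, 0.944%, 0.956% and 9.82% of the members had a UMI and 0.102%, 0.127%, 0% and 0.789% of the T cells. The shares were 1.97%, 4.93%, 1.95% and 16.9% in Ccr2 monocytes and 0.570%, 0.706%, 0.380% and 2.51% in macrophages. The combination was thus the highest library in those classes too. Cxcl3, a chemokine for neutrophils, was at 3.39, 14.2, 51.4 and 162 CPM, a ratio of 47.9 that was 37.4 without its largest cell and 8.51 without the S100a8 or S100a9 members.

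The chemokines divided by how they depended on those members. Ccl5, a chemokine that draws T cells and monocytes, was at 345, 383, 362 and 896 CPM, with a ratio of 2.60 over all members and 2.15 without them. Il1rn, the interleukin-1 receptor antagonist, was at 307, 402, 418 and 861 CPM, 2.80 and 1.99. Cxcl2, which draws neutrophils through CXCR2, was at 124, 115, 201 and 884 CPM, and its ratio went from 7.14 to 2.08. Ccl3 and Ccl4, inflammatory chemokines also known as MIP-1 alpha and beta, were at 113, 132, 62.6 and 481 CPM and at 49.7, 36.9, 15.95 and 347 CPM. Their ratios turned from 4.26 to 0.937 and from 6.97 to 0.468, so the difference was not seen in the cells without S100a8 or S100a9 UMIs. That split uses genes that were themselves higher in the combination and that deeper cells show more easily. It took the members' UMIs from 2672341 to 1606931 in the combination and from 4427179 to 4160669 in isotype control. Why the ratios turned was not tested.

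Il1b, interleukin-1 beta, was at 1294, 1259, 1405 and 2209 CPM, with a ratio of 1.71 (1.65 to 1.77) that was 1.24 without the S100a8 or S100a9 members. Il1a was at 6.55, 14.9, 134 and 143 CPM, high in both single antibody B and the combination over all members, but at 4.67, 3.85, 5.61 and 103 in the top range. In single antibody B it lay almost wholly in the lowest range, at 346 CPM. Tnf was at 107, 96.7, 85.1 and 199 CPM, a ratio of 1.86 that was 0.916 without those members. Lower in the combination were Ccl6, at 378, 279, 334 and 274 CPM, Ccl9, at 446, 444, 499 and 359.6, and Tgfb1, at 739, 766, 738 and 675. Il10 and Il12b had at most 1.18 CPM in any library.

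Genes of the first minutes of a response, the immediate early genes, and heat shock genes stood lower in the combination. Of 14 genes 13 were lower by more than counting error, 5 of them at least 2-fold, with a median ratio of 0.693, where 28.3% of all genes were lower and 0.486% at 2-fold. The median was 0.735 without the S100a8 or S100a9 members. Single antibodies A and B had 10 and 8 lower with medians of 0.871 and 0.935, where 10.2% and 16.9% of all genes were lower. In the top range the combination had 11 of 14 lower (all genes 19.7%) and A 10 (all genes 9.8%), but B turned, with 0 lower and 6 higher (all genes 6.93% and 6.79%) and a median of 1.04. Fos was at 3335, 2493, 3354 and 1432 CPM, a ratio of 0.429. Egr1, a zinc finger factor, was at 347, 306, 309.6 and 149.7 CPM, and with Sirpb1b, a receptor of a family of close copies (0.45), it was 1 of only 2 genes that the combination held at least 2-fold below each other library, 0.0494% of the 4045 that could be so. Both were also lowest in the combination in Ccr2 monocytes, Egr1 at 182, 139, 170 and 81.5 CPM and Sirpb1b at 52.4, 39.6, 48.2 and 29.3. In T cells Egr1 was highest in the combination, at 194, 194, 182 and 260 CPM. Hspa1a, an inducible HSP70, was at 252, 109, 212 and 68.1 CPM, a ratio of 0.271. It was also low in the combination in Ccr2 monocytes, at 359.95, 308, 197 and 56.5 CPM, and in macrophages, at 512, 410.4, 424 and 90.5.

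Of genes that decide survival, 5 of 8 were higher and 2 lower in the combination by more than counting error, where 22.5% and 28.3% of all genes were. Bcl2a1b, an anti-apoptotic relative of Bcl2 from a family of near-identical genes, was at 108, 155, 132 and 241 CPM, the only one at 2-fold, with a ratio of 2.22 that was 1.72 without the S100a8 or S100a9 members. Bcl2l1, which encodes BCL-XL, was at 56.5, 70.4, 65.0 and 98.4 CPM. Mcl1, another protector of myeloid cells, was at 1593, 1589.6, 1507 and 1412 CPM. Bcl2 itself was at 36.6, 39.6, 20.7 and 28.4 CPM and did not pass the minimum of 50 CPM.

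Cd14, the co-receptor for bacterial lipopolysaccharide and a classical monocyte gene, stood out from its list at 296, 363, 529 and 1017 CPM, a ratio of 3.44 (3.22 to 3.68) that was 2.03 without the S100a8 or S100a9 members. Clec4e, a receptor for dead cells and mycobacteria, was at 173, 253, 233 and 373 CPM. Of the 16 classical identity genes, 3 were higher and 8 lower by more than counting error (all genes 22.5% and 28.3%). The median ratio was 0.929 against 0.968 for all genes, and 1.10 against 0.951 without members above 30000 UMIs. In the top range 3 of 14 were higher and 9 lower (all genes 15.8% and 19.7%), with a median of 0.765. Over all members 3 (Cd14, Clec4e and Mmp8) were at least 2-fold higher and 1 (Ccr2) was 2-fold lower (all genes 4.1% and 0.486%). Without the S100a8 or S100a9 members Cd14 alone of these was 2-fold higher, where 2.72% of all genes were, and 0 were 2-fold lower, with ratios of 1.44 for Clec4e, 1.39 for Mmp8 and 0.536 for Ccr2. Lyz2 was at 7947, 7544, 8752 and 6004 CPM and Plac8 at 6964, 6878, 6556 and 5088, each lowest in the combination. Among macrophage genes, Hmox1, heme oxygenase 1, was at 268, 532, 697 and 883 CPM, where the ratio of 3.29 was 1.40 without those members. Of 9 macrophage genes compared, 6 were at least 2-fold higher and 1, the mannose receptor Mrc1, lower, at 77.9 CPM in isotype control and 28.8 in the combination, where 4.1% of all genes were 2-fold higher. Without those members 2 of 8 were 2-fold higher and 1 lower, with a median ratio of 1.28, and 2.72% of all genes were 2-fold higher.

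Over all genes, 80 stood in the combination at least 2-fold above each of the other libraries, or 1.79% of the 4470 that could. For 40 of them this held when the cell with the most UMIs of the gene was left out. The 10 with the highest ratio included 8 that rested on 1 cell each for most of their UMIs. Krt8, Krt18, Krt19, Fcgbp and Clca1, genes of epithelium and goblet cells, came wholly or almost wholly from 1 cell with 36747 UMIs that had just 3 UMIs of the rule genes. That cell held all UMIs of Krt8 in the combination, 433, where isotype control held 0. Sox9, an epithelial and cartilage factor, lay to 87.1% in the cell with 151976 UMIs, which also carried most UMIs of Myc, Ccnd1 and Rrm2. Ctsk, cathepsin K, lay to 98.3% in a cell with 98066 UMIs, 101 of them of the rule genes, which also held most of Acp5, both being genes of osteoclasts. Mmp13, a collagenase, lay to 69.6% in 1 cell. Of the leading 10, Inhba and Cxcl3 were spread over 42 and 33 members.

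Other genes among the 40, named here after their values were seen, were Il1f9, which encodes interleukin-36 gamma, at 6.55, 8.12, 11.2 and 115 CPM, Slc7a2, an arginine transporter, at 20.8, 50.1, 67.4 and 211, Hcar2, a receptor for niacin and ketone bodies, at 42.7, 35.2, 25.4 and 237, and Slpi, an inhibitor of neutrophil elastase, at 110.5, 137, 141 and 684. Without the S100a8 or S100a9 members their ratios to isotype control were 7.77 (1.94 to 44.6) for Il1f9, then at 5.60 CPM in the combination, 4.93 for Slc7a2, 2.02 for Hcar2 and 3.20 for Slpi. Slpi had UMIs in 116 of 212 members of the combination and 144 of 503 of isotype control. Against the single antibodies, the combination had 160 genes 2-fold higher than A (3.39%) and 11 lower (0.233%), and 111 higher than B (2.37%) and 13 lower (0.278%). In Ccr2 monocytes the combination had 112 of 4723 genes 2-fold above isotype control (2.37%) and 42 below (0.889%).

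Single antibody A stood apart in few genes. Those it held at least 2-fold above each other library were 2, or 0.046% of 4344, Mcpt2, a mast cell protease, at 1.58, 959, 0 and 62.1 CPM, and Aqp1, a water channel of red cells and endothelium, at 0, 58.5, 0 and 0. In A, each came from 1 cell. Sem1, a subunit of the proteasome, was the only gene that A held 2-fold below each other library (0.0251% of 3978), at 273, 123, 298 and 259 CPM. It was as low in A in Ccr2 monocytes, at 249, 121, 256 and 241 CPM, in macrophages, at 188, 89.1, 189 and 187, and in T cells, at 177, 87.7, 167 and 168, so this too was not particular to the members.

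Single antibody B had 4 such higher genes, 0.0929% of 4305, and 0 lower of 4008. Spp1, osteopontin, was at 129, 129, 944 and 396 CPM, but 75.7% of its UMIs in B came from 1 cell of 32365 UMIs that held 3 UMIs of the rule genes, and without that cell its ratio to isotype control went from 7.32 to 1.82. Ptgr1, a reductase of prostaglandins, came from the same cell to 57.5%. Mt2, a metallothionein, was at 20.1, 4.74, 105 and 43.4 CPM and Emp1, a membrane protein, at 34.8, 41.3, 88.0 and 41.2. None of the 4 stood 2-fold above each other library once its largest cell was left out.

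Neutrophil transcripts, summed over their list, were highest in the combination. Of the 10 neutrophil markers the summed level in the members was 703 CPM in isotype control, 818 in A, 558 in B and 2057 in the combination. The most abundant was Csf3r, which monocytes also express, at 485, 486, 397 and 616 CPM in the same order, and the granule genes Camp and Ngp and the surface marker Ly6g were each at or under 0.374 CPM in every library. The chemokine receptor Cxcr2 was at 9.04, 8.80, 2.95 and 78.2 CPM, Lcn2, lipocalin 2, at 4.52, 17.3, 5.91 and 58.4, Mmp9, a gelatinase, at 20.6, 12.2, 18.3 and 125, and Retnlg, a resistin-like protein, at 2.48, 8.12, 3.54 and 11.2. S100a8 and S100a9, the calprotectin subunits, were at 78.8, 117, 50.8 and 615 CPM and at 103, 167, 79.2 and 553 CPM. Of the 6 neutrophil genes that reached the minimum all exceeded isotype control in the combination by more than counting error, 5 of them at least 2-fold, where 22.5% and 4.1% of all genes did. In T cells the summed list was at 28.3, 26.8, 17.7 and 402 CPM. A UMI of S100a8 or S100a9 was found in 25 of 503, 16 of 322, 17 of 162 and 58 of 212 members, 4.97%, 4.97%, 10.5% and 27.4%.

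With every cell drawn down to 2000 UMIs, the shares were 2.40%, 2.46%, 3.25% and 14.7% in the members, 2.71%, 3.17%, 3.26% and 11.0% in Ccr2 monocytes, 1.61%, 0.835%, 1.44% and 6.88% in macrophages and 0.924%, 0.846%, 0.0889% and 5.26% in T cells. The combination was highest in all 4 classes, as the plot of neutrophil UMIs shows. The part of free neutrophil RNA, of doublets with neutrophils and of the members' own expression in these shares was not tested.

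**Figure D5:**
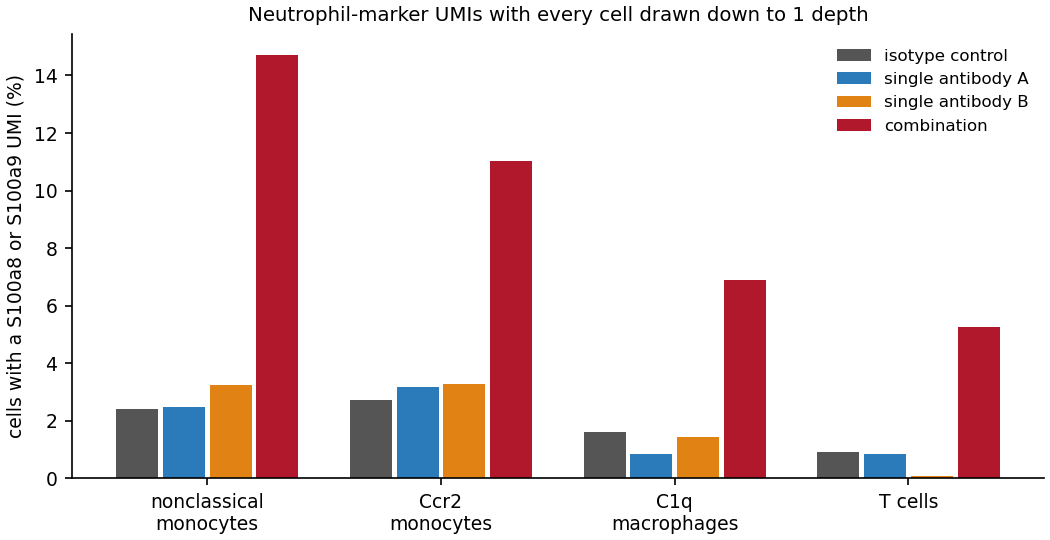
Share of cells with at least 1 UMI of S100a8 or S100a9, in percent, in nonclassical monocytes, Ccr2 monocytes, C1q macrophages and T cells of each library, with every cell drawn down to 2000 UMIs. The combination is the highest library in each class, from 14.7% in the nonclassical monocytes to 5.26% in the T cells.

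The other marker lists were summed in the same way. T cell markers summed to 19.7, 11.2, 15.4 and 11.2 CPM and NK cell markers to 10.8, 12.9, 11.8 and 9.73, after both lineages had been limited by the rule. B cell markers summed to 290, 271, 216 and 159 CPM, nearly all of it Ighm, at 274, 248, 193 and 149.7, while Pax5 and Fcmr were at 0 in isotype control and the combination. Platelet markers summed to 30.5, 14.5, 22.5 and 42.7 CPM, led by Pf4, which stood higher in macrophages, at 219, 285, 180.4 and 229.96 CPM, while the platelet genes Gp9 and Gp1bb were at 0 in the members of every library. Endothelial markers summed to 51.0, 132, 37.2 and 103 CPM, led by Pecam1, and fibroblast and tumor markers to 26.0, 66.6, 32.5 and 527, led in the combination by Krt8 from the single cell described. Dendritic cell markers summed to 461, 537, 532 and 612 CPM, led by Bst2, an interferon-induced gene, with Flt3 at 0 by the rule. Genes of dividing cells summed to 265, 281, 220 and 449 CPM, and the most abundant, Pcna, was at 171, 156, 162 and 152, not highest in the combination. In the combination the cell with 151976 UMIs held 89.3% of the UMIs of Rrm2 and 59.7% of those of Mcm6. In the top range the list summed to 246, 237, 209 and 206 CPM, and without members above 30000 UMIs Pcna was at a ratio of 0.752. Mki67 was at 12.2, 31.5, 5.91 and 34.4 CPM.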

How the data were processed

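Single-cell libraries of CD45-positive tumor cells were made with probes for messenger RNA (10x Chromium Flex) and multiplexed by probe barcodes. The authors deposited raw UMI counts, 1 matrix per library, filtered to called cells by Cell Ranger, version 7.2.0 in the file headers and 7.0.0 in the submitters' processing notes, on mm10. Doublets had not been removed and were kept, and leaving out the 5% highest Scrublet scores was an alternative. Gene positions come from GENCODE vM21.

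Counts were summed over the members of a library and divided by their total, giving CPM. Exact 95% intervals of ratios (conditional binomial) and shares (Clopper-Pearson) cover counting error, not the spread between cells or mice. With 1 library per group no test was made. The calls were tested on simulated counts with known changes. These were drawn from summed levels without spread between cells, so they cover counting error only and not genes that rest on 1 cell. UMIs were drawn down 100 times. Where a ratio faced 0 UMIs, a floor of 3 was used for ranking.

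Members and gene lists were chosen with earlier results of these data known. Named were the marker genes, the leading members of each list, up to 10 genes the combination and 5 genes a single antibody held 2-fold above or below each other library, and 15 higher and 10 lower against Ccr2 monocytes. The comparison class was planned with at least 5 Ly6c2 UMIs besides Ccr2, but Ly6c2 was not analysed here, so Ccr2 alone was used. Python 3.11.15, numpy 2.4.6, scipy 1.17.1, pandas 2.3.3, scanpy 1.11.5 and matplotlib 3.10.9 were used. Some genes of the lists are not reported here.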

Additional observations from a re-analysis of the deposited data

Results flagged for a closer look

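Spp1, osteopontin, differed in direction between the monocyte classes. Between isotype control and the combination it went from 129 to 396 CPM in nonclassical monocytes, a ratio of 3.07 (2.77 to 3.40), and from 1699 to 997 CPM in Ccr2 monocytes, a ratio of 0.587. The difference between the classes was not tested, there being 1 library per group. In the nonclassical monocytes with at least 20 UMIs of Ace, Treml4 and Adgre4 the ratio was 1.87, and in those without S100a8 or S100a9 UMIs 2.44.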

How the results depend on the processing

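Leaving out a replicate was not possible with 1 library per group. No paired analysis was possible because each group has 1 library and the labels number no replicates across groups. The share of members was lower in the combination and in single antibody B than in isotype control under every setting run. For the combination the ratio was 0.351 without cells holding any UMI of other lineages, and for B it was 0.662 against both monocyte classes, 0.339 drawn down and 0.547 drawn down against both classes. The 194 genes that the combination held at least 2-fold above isotype control became 358 with a floor of 20 CPM and 111 with 100 CPM in place of 50, 129 in members without S100a8 or S100a9 and 118 with each member weighing the same and the ranges as in isotype control. The 23 lower genes became 42 and 12 under those floors, 15 with C1q under 0.1%, 11 without UMIs of other lineages, 12 without S100a8 or S100a9, 11 without members above 30000 UMIs, and 9 with each member weighing the same, with or without the ranges matched. The 80 genes above each other library became 182 and 44 under those floors, 126 without shared droplet barcodes, 130 in the top range and 51 with each member weighing the same. Against Ccr2 monocytes 229 genes were higher and 160 lower for the top range, 65 and 26 with at least 5 Chil3 UMIs in the comparison class, and 116 lower with each cell weighing the same. The ratios of the combination to isotype control turned without S100a8 or S100a9 for Ccl3 (0.937), Ccl4 (0.468) and Tnf (0.916), nearly at 1 for Cebpb (0.998), Cd74 (0.993) and Tgfb1 (1.003), and for Cd36 without them (0.859) and without UMIs of other lineages (0.784). The cause was not tested. Of the summary results under these settings 97 kept their size and direction and 26 did not, and of the single genes recomputed under every setting, which do not include Tnf, Cebpb, Cd74 and Tgfb1, 367 stayed within their interval, 202 left it in the same direction and 4 turned. The top range, the S100a8 or S100a9 split, the limit of 30000 UMIs, the matched ranges and the Chil3 class were chosen after seeing the data.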

Other observations

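Genes outside the lists, named after their values were seen, also stood at least 2-fold above each other library in the nonclassical monocytes of the combination with their largest cell left out. Ptgs2, the inducible cyclooxygenase, was at 77.0, 70.0, 93.9 and 238 CPM in isotype control, single antibody A, single antibody B and the combination. Ier3, an early response gene, was at 159, 230.4, 243 and 571 CPM, and Grina, a membrane protein that guards against cell death, at 326, 367, 467 and 1328. Hilpda, a protein of lipid droplets that hypoxia induces, was at 46.8, 56.5, 64.4 and 181 CPM. Il18bp, the secreted binder of interleukin-18 that interferon gamma induces, was at 33.0, 46.0, 40.8 and 116 CPM, and Cish, a feedback inhibitor of cytokine signalling, at 24.4, 28.1, 24.2 and 70.4. Without the members that held S100a8 or S100a9 UMIs, Ptgs2 was at 51.4 CPM in isotype control and 77.2 in the combination, and the ratios of the combination to isotype control were 1.67 for Ier3, 2.29 for Grina, 1.67 for Hilpda, 2.28 for Il18bp and 2.41 for Cish, so 3 of the 6 were then under 2-fold. Neutrophil transcripts were highest in the same library, and their part in these levels was not tested.

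A pair of genes, Ctsd and Cd63, chosen after their values were seen, stood higher in single antibody B and in the combination over all members, whereas single antibody B was lowest in those with at least 20 UMIs of Ace, Treml4 and Adgre4. Ctsd, cathepsin D, was at 139, 145, 300.1 and 407 CPM over all members and in those members at 128, 106, 59.8 and 327. Cd63, a tetraspanin of late endosomes, was at 20.8, 44.0, 88.0 and 163 CPM, and there at 17.4, 58.4, 1.87 and 184. Without the members that held S100a8 or S100a9 UMIs, the ratio of the combination over isotype control was 1.17 for Ctsd and 4.00 for Cd63.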
